A study of Mus musculus with 8 samples.

Results

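The proteasome is the barrel-shaped protease that degrades proteins marked with ubiquitin. Its core is built of stacked alpha and beta rings, with the proteolytic sites inside the beta rings. A regulatory particle of a base with ATPases and a lid binds ubiquitin chains, removes them and threads the protein into the core, and other activators can take its place. In granulosa cells, as in other dividing cells, it degrades regulators of the cell cycle, and it degrades the HIF1A protein where oxygen is plentiful. The transcripts examined here are all rows whose gene symbol begins with Psma to Psmg and a digit, pseudogenes left out. They number 50 of the 35087 rows that carry a gene name (36635 rows in all). They were taken by name and not by any measured value. Of these 50 genes, 49 had enough reads to be tested, and Psme2b, a near copy of the activator gene Psme2, did not. Psmc3ip matched the name rule too, although it encodes a meiotic recombination factor and not a proteasome subunit.

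RNA came from granulosa cells cut from mouse ovary sections by laser microdissection. All mice were females with Hif1aflox/flox alleles, in which Cre can excise part of Hif1a, the oxygen-regulated subunit gene of HIF1. The cKO group (2 libraries) also carried Foxl2-CreERT2, a Cre that tamoxifen activates in cells expressing the granulosa gene Foxl2, so recombination depends on Foxl2 expression and on the drug. The WT group (6 libraries) carried the same floxed alleles without Cre and is therefore not free of engineered alleles. Both groups received tamoxifen at 100 mg/kg daily for 5 days, starting at 3 weeks of age, with the tissue collected after a further 7 days. The genotype label calls cKO a knockdown and WT a wild type, and the library names begin with cKO for all 8 samples. The titles were followed. No label ties a library to an animal, so p-values measure the spread between libraries, which may in part be technical.

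Depth and composition differed between the groups. Reads on named genes numbered 2054584 in cKO replicate 1 and 651426 in cKO replicate 2. The WT libraries held from 1594803 (replicate 1) to 4719293 (replicate 4). Genes with at least 5 reads numbered 12847 and 12120 in cKO and from 13597 to 14727 in WT, and the mitochondrial genome took 8.87% and 10.5% of reads in cKO and from 1.42% to 3.65% in WT. All 12 granulosa markers, Foxl2 and Fshr among them, were read in both cKO libraries, with a summed normalised read count of 6397 and 2292 CPM (reads scaled to the library size, adjusted by TMM) in cKO and of 4862 to 66820 CPM in WT. Of these 12 markers, 11 were lower in cKO, with a median log2 fold change of -2.04 over the list. At an edgeR unadjusted p under 0.05, 7 were lower and 0 higher, where 8.89% of all tested genes were lower and 3.4% higher. The 9 oocyte markers among the rows summed to at most 52.3 CPM in cKO and to between 7.02 and 1811 CPM in WT (highest in replicate 6). Dppa3 was at 0 reads in both cKO libraries, and Zp2 and Bmp15 were at 0 in cKO replicate 2. Such zeros were not particular to cKO, as Zp1, Zp2, Bmp15 and Oosp1 were at 0 in WT replicates 4 and 5. The sums of WT replicates 3 to 5 (12.1, 18.4 and 7.02 CPM) lay below both cKO sums (52.3 and 27.3 CPM). The 7 stroma markers summed to 1341 and 372 CPM in cKO and from 16.6 to 1002 CPM in WT, the 6 theca markers to 235.5 and 83.3 CPM against 126 to 741 CPM, and the 6 endothelial markers to 297 and 255 CPM against 87.1 to 419.8 CPM. The 7 leukocyte markers summed to 38.1 and 31.4 CPM in cKO and from 7.98 to 30.2 CPM in WT, higher in cKO with no overlap. The gap between cKO replicate 2 and WT replicate 1 was smaller than 3 reads in the former (4.1 CPM). Of the 6 tested leukocyte markers, 2 were lower in cKO, and 0 were at an edgeR unadjusted p under 0.05 in either direction. The 5 red cell markers summed to 419 and 57.4 CPM in cKO and from 43.4 to 376 CPM in WT. The part of these marker lists in the results below was not tested. Hif1a itself had 22.3 and 13.7 CPM in cKO and from 35.5 to 106 CPM in WT, with no overlap, counted over the whole gene and not over the excised segment (log2 fold change -1.84 ± 0.58, SE, edgeR adjusted p = 0.369). Its estimate was -0.32 with the number of genes read as a covariate, -0.94 among the libraries numbered 1 and 2 of both groups and -1.05 with the replicate number as a block.

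Nearly all proteasome genes had lower estimates in cKO than in WT, but the 2 groups overlapped for most of them. Of the 49 tested, 47 had a log2 fold change under 0, where 52.7% of all 15102 tested genes did. The median over the members was -0.94 and that over all tested genes -0.08. In the test across all genes (edgeR's quasi-likelihood test) 0 members and 0% of all genes passed an adjusted p of 0.05, with adjusted p-values of the members from 0.369 to 0.995. An unadjusted p under 0.05 was reached by 16 members, all lower in cKO, and by 0 higher ones, against 8.89% of all genes lower and 3.4% higher. The groups did not overlap for 6 tested members, all lower in cKO (Psmb2, Psmb10, Psmd13, Psmf1, Psmg4 and Psmd10, compared in CPM), where 6.41% of all genes were lower and 6.02% higher without overlap. DESeq2 computed an adjusted p for 44 members, of which 1, Psmb2, was called. It called 3.53% of the genes it gave an adjusted p as lower and 0.451% as higher. Without the filter on low counts edgeR called 6 members, Psma1, Psma6, Psmb2, Psmb7, Psmd10 and Psmd13, where 1.6% of the genes in that fit were called lower. Psmd10 is counted among the 47, the 16 and both sets of 6. It had 0 reads in both cKO libraries and passed the main filter through WT alone, so it could only be counted as lower. In cKO replicate 2, 3 reads are 4.1 CPM, above the 2.20 CPM of Psmd10 in WT replicate 1. In bulk RNA, fewer cells of a type and less RNA per cell cannot be told apart.

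**Figure D1:**
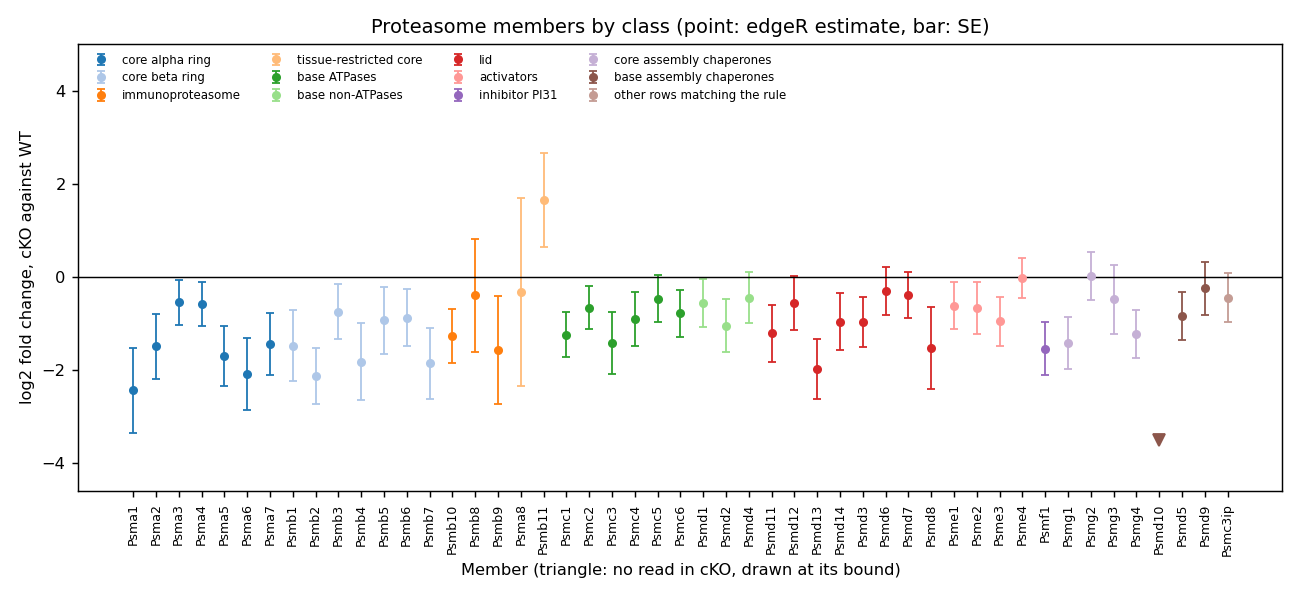
Log2 fold change of cKO against WT (y axis) for each of the 49 tested members (x axis), coloured by class. Points are edgeR estimates from 2 cKO and 6 WT libraries, bars are SE, and the triangle is Psmd10, which had no read in cKO and is drawn at its bound of 3.5 below WT. The points lie below 0 except Psmb11 at 1.65 and Psmg2 at 0.01.

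The size of the difference rested on single libraries. The count of 16 was 27 without cKO replicate 1 (10.2% of all genes lower at that threshold) and 2 without cKO replicate 2 (3.5%). It was 25 without WT replicate 1 (13%), and 10 in each case without WT replicate 2 (8.53%), 5 (6.24%) or 6 (6.95%). Of the 49 members, 35 had their lowest value in cKO replicate 2, the library with the fewest reads, and 7 in WT replicate 1. The 4 libraries with the fewest reads were cKO replicate 2, WT replicate 1, cKO replicate 1 and WT replicate 3. In the same order, they had the lowest summed levels of the core. Above them the order differed, as WT replicate 4 had the most reads (4719293) but a lower core sum than WT replicates 2, 5 and 6. The granulosa marker sums were also lowest in cKO replicate 2, WT replicate 1 and cKO replicate 1 (2292, 4862 and 6397 CPM), in that order. Whether the core levels go with reads or with these markers was not tested. When the count of genes with at least 5 reads entered the fit as a covariate, 37 of the 49 members were under 0 (59.1% of all genes). At an unadjusted p under 0.05, 2 were lower (2.31%). Both cKO libraries lie below every WT library in that count (12847 and 12120 against at least 13597). Estimates with this covariate are therefore extrapolated, and covariate and group cannot be told apart. Among the libraries numbered 1 and 2 of both groups alone, 42 of the 47 testable members were under 0 (51.4%), and 1, Psmb2, was lower at that threshold (1.22%). Its 2 WT libraries are those with the lowest granulosa marker sums. Within these sums, Inha gave 42620 of the 66820 CPM in WT replicate 4. Inha, Fshr, Inhba, Cyp19a1, Hsd17b1, Nr5a2, Fst and Gja1 were each lower in WT replicates 1 and 2 than in every other WT library. Foxl2, Amh, Amhr2 and Serpine2 were not. Amh had another order, with 766.5 and 1126 CPM in WT replicates 1 and 2 and at most 175.7 CPM in the other WT libraries. Foxl2, at 148.9 and 231.8 CPM in these 2, was at 139.5 CPM in WT replicate 4 and 332.2 CPM in WT replicate 3.

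**Figure D2:**
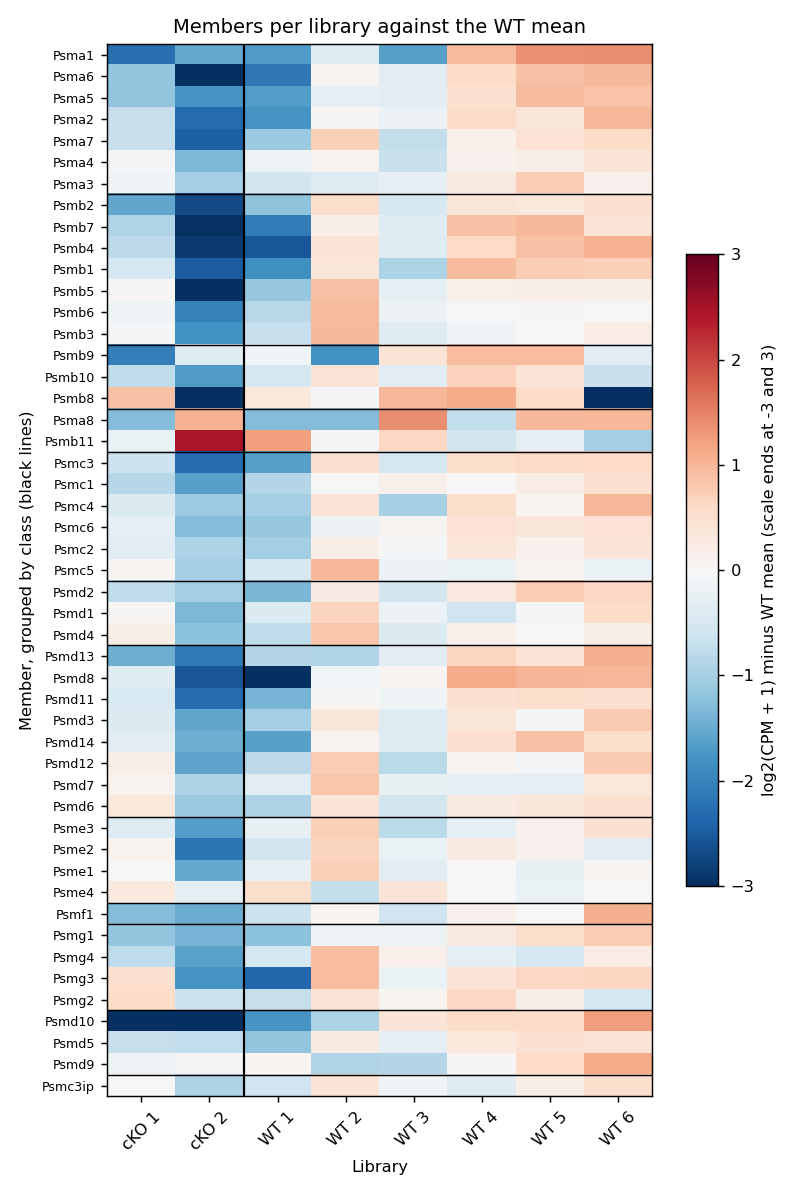
Normalised read count of each tested member (y axis, ordered by class and within a class by fold change) in each library (x axis), as log2(CPM + 1) minus the mean of the 6 WT libraries, blue for lower and red for higher. Replicate 2 of cKO and replicate 1 of WT are blue over most of the core and the regulatory particle, and cKO replicate 2 is the lowest library for 35 of the 49 members.

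Relative to WT, the median of the core lay below that of the regulatory particle. Its 14 constitutive genes (Psma1 to Psma7 and Psmb1 to Psmb7) had a median log2 fold change of -1.49, with 8 at an unadjusted p under 0.05. The 17 genes of the regulatory particle (Psmc1 to Psmc6 and the Psmd subunits of base and lid) had a median of -0.9, with 3 at that threshold. Of all tested genes, 8.89% were lower at it. All 31 were under 0. Of the 10 lowest among these 31 genes, 8 belonged to the core. The medians were -2.63 and -1.5 without cKO replicate 1, and -0.93 and -0.6 without cKO replicate 2, so the core median was the lower in both, while the median of all tested genes was -0.27 and -0.34. They were -0.55 and -0.34 with detected genes as a covariate (-0.26 over all genes), and -0.93 and -0.51 among the libraries numbered 1 and 2. The difference between the 2 parts is described and was not tested.

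Summed over the core, levels per transcript length and CPM both put cKO replicate 2 and WT replicate 1 lowest. The order of the other libraries differed, as WT replicate 2 was highest in CPM only. TPM (the deposited level per transcript length) summed over the 14 core genes was 3177 and 1377 in cKO replicates 1 and 2, and 2608, 5430, 4242, 5131, 6200 and 6814 in WT replicates 1 to 6. WT replicate 1 thus lay below cKO replicate 1, and only cKO replicate 2 was below all WT libraries. Over the 17 genes of the regulatory particle the sums were 1545 and 913 in cKO and 1240, 2130, 1829, 1972, 2097 and 2775 in WT, with the same libraries at the bottom. In single genes, cKO replicate 1 was below WT replicate 1 in only 3 of the 31 genes in CPM, but below WT replicate 6 in 30. Replicate 2 of cKO was below WT replicate 1 in 26 of 31. The mean TPM per core gene divided by the mean TPM per gene of the regulatory particle was 2.50 and 1.83 in cKO and 2.55, 3.10, 2.82, 3.16, 3.59 and 2.98 in WT. The groups did not overlap in this ratio, though cKO replicate 1 and WT replicate 1 were almost equal, and the ratio was lowest in the library with the fewest reads.

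**Figure D3:**
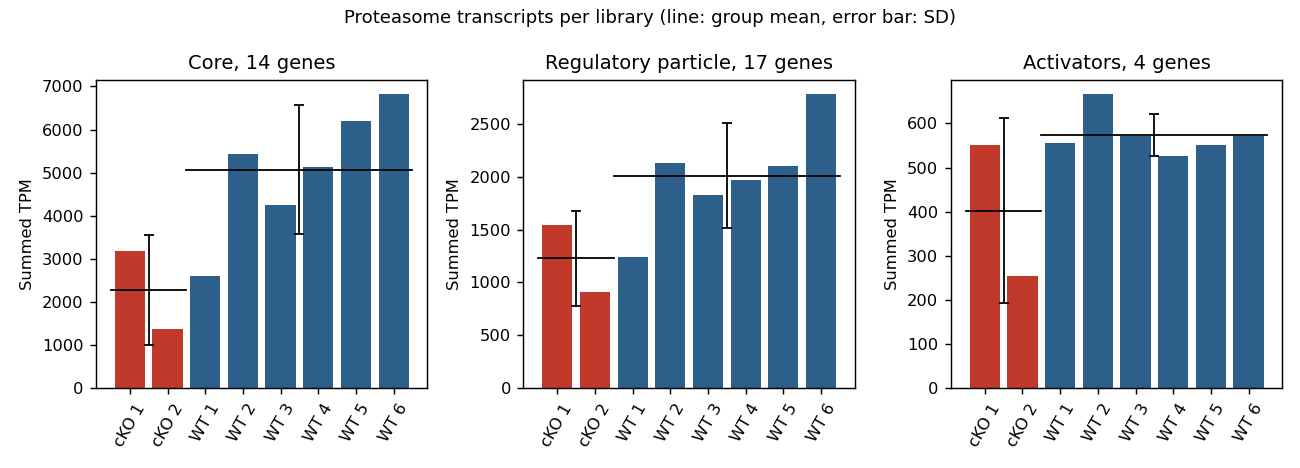
Summed TPM (y axis) of the core, the regulatory particle and the activators in each of the 8 libraries (x axis), with cKO in red and WT in blue, group means as lines and SD as error bars. Replicate 2 of cKO is lowest in all 3 panels, and WT replicate 1 (2608 for the core) is below cKO replicate 1 (3177).

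**Figure D4:**
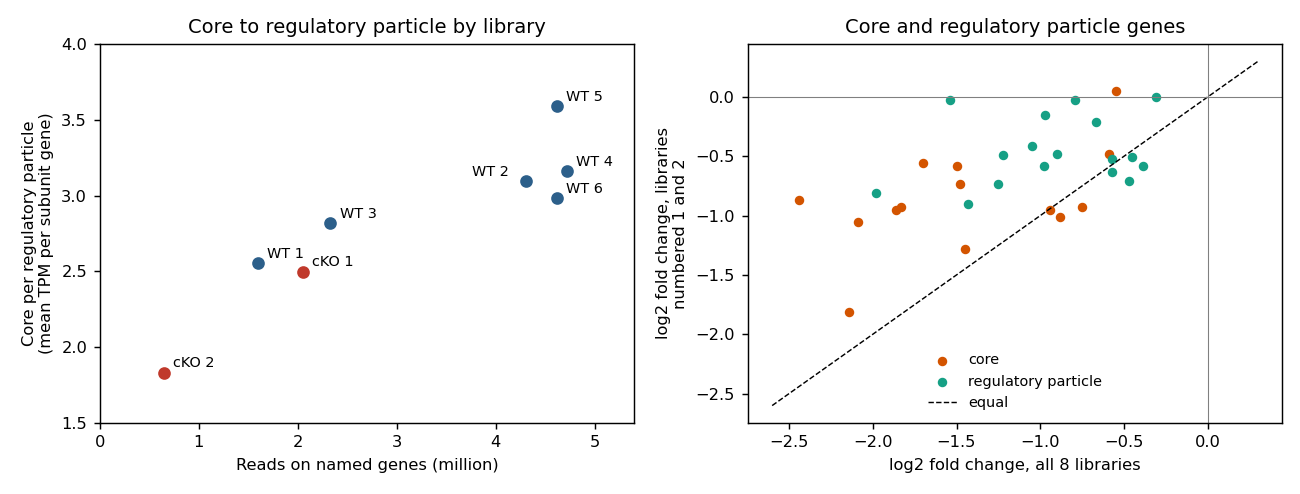
Left, the ratio of core to regulatory particle (mean TPM per gene, y axis starting at 1.5) against reads on named genes (x axis), 1 point per library. Right, log2 fold change with all 8 libraries (x axis) against that in the 4 libraries numbered 1 and 2 (y axis) for the 14 core and 17 regulatory particle genes, most of which lie above the dashed line of equality, nearer to 0 on the y axis.

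Within the alpha ring, whose subunits form the gate of the core, all 7 genes were under 0. An unadjusted p under 0.05 was reached by 5 (8.89% of all genes were lower at it). Psma1 had 20.3 CPM in cKO replicate 1, 34.1 CPM in cKO replicate 2 and 30.8, 137 and 268 CPM as the lowest, median and highest of the WT libraries (log2 fold change -2.44 ± 0.91, SE, edgeR adjusted p = 0.369). WT replicates 1 and 3, at 30.8 and 32.4 CPM, lay within the cKO range, so the WT group was split. Psma6 had 58.9 and 15.03 CPM in cKO and 29.1, 166 and 262 CPM in WT (-2.09 ± 0.78, edgeR adjusted p = 0.369). Psma5 had 47.7 and 31.4 CPM against 34.1, 122 and 213 CPM (-1.70 ± 0.65, edgeR adjusted p = 0.374). For both genes the only WT library at the cKO level was replicate 1. Psma2 had 218 and 69.7 CPM in cKO and 102, 407 and 705 CPM in WT (-1.50 ± 0.69). Psma7, the most abundant alpha gene per length, had 329 and 96.98 CPM in cKO and 243, 651 and 866 CPM in WT (-1.45 ± 0.66). At the other end, Psma3 had 193 and 102 CPM against 141, 200.4 and 353 CPM (-0.55 ± 0.48), and replicate 1 of cKO sat amid the WT libraries. Among the libraries numbered 1 and 2, Psma1, Psma6 and Psma5 were at -0.87, -1.05 and -0.56. With detected genes as a covariate they were at -0.85, -0.72 and -0.44, Psma2 and Psma7 at -0.66 and -0.65, Psma3 at 0.89 and Psma4 at 0.28, so that the last 2 changed sign.

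In the beta ring, which holds the proteolytic sites, all 7 genes were again under 0. Of these, 3 were at an unadjusted p under 0.05 (8.89% of all genes lower). Psmb2, a non-catalytic beta subunit, stood out as the core gene whose groups did not overlap. It had 74.6 and 34.1 CPM in cKO and 96.7, 281 and 320.4 CPM in WT. Both cKO libraries were below the lowest WT library, replicate 1. Its log2 fold change was -2.14 ± 0.60 (SE, edgeR adjusted p = 0.369, DESeq2 adjusted p = 0.00933), and it was -1.81 among the libraries numbered 1 and 2, -1.76 without cKO replicate 2 and -1.55 with detected genes as a covariate. Psmb4 had 125 and 28.7 CPM in cKO and 36.3, 305 and 449 CPM in WT (-1.83 ± 0.83). Psmb7, which carries the trypsin-like site, had 59.9 and 13.7 CPM against 25.8, 140.3 and 223 CPM (-1.86 ± 0.76). It rested on 118 and 10 reads in cKO, and its exons share 405 bases with Nek6 on the other strand. For Psmb4 and Psmb7, WT replicate 1 fell between the cKO libraries. With detected genes as a covariate Psmb4 was at -0.53 and Psmb7 at -0.05, and among the libraries numbered 1 and 2 Psmb4 and Psmb7 were at -0.93 and -0.95.

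The genes of the other catalytic sites had smaller estimates. Psmb5, with the chymotrypsin-like site that proteasome inhibitors target, had 358 and 36.9 CPM in cKO and 160.5, 395 and 651 CPM in WT (-0.94 ± 0.72, edgeR adjusted p = 0.595). The 2 cKO libraries were far apart, with replicate 1 near the WT median, and leaving out cKO replicate 2 gave an estimate of -0.15, leaving out replicate 1 one of -3.44. Psmb3 had 454 and 131 CPM in cKO and 286, 443 and 908 CPM in WT (-0.75 ± 0.59), with replicate 1 of cKO just above the WT median. Psmb1 and Psmb6, the latter with the caspase-like site, were at -1.48 ± 0.76 and -0.88 ± 0.62. Psmb1 changed sign, to 0.19, with detected genes as a covariate, and was at -0.73 among the libraries numbered 1 and 2. Per length, Psmb6 was the highest of all members in each of the 8 libraries, with 1097 ± 279 TPM in WT (SD, n = 6) and 583 TPM as the mean in cKO. Psmb3 and Psma7 took the next places in 7 of the 8. The genes of a ring, whose proteins are used in equal numbers, differed widely in transcript level: the highest beta gene exceeded the lowest by 17.9 and 22.9 times in cKO and by 5.43 to 27.0 times in WT.

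The immune subunits replace the catalytic ones when interferon induces them, and they were low throughout. Psmb8 (in place of Psmb5) had 16.8 CPM in cKO replicate 1, 0 reads in cKO replicate 2, and 0.218, 12.2 and 19.8 CPM in WT, where the lowest, replicate 6, was 1 read. Psmb9 (in place of Psmb6) had 1.01 and 5.46 CPM in cKO, from 2 and 4 reads, and 1.37, 8.37 and 14.8 CPM in WT. At this depth no difference was detectable in either (-0.40 ± 1.21 and -1.58 ± 1.16), and their exons share bases with Gm20496 and Tap1. With limma on log2(TPM + 1) Psmb8 was at -1.07 and Psmb9 at -0.08. Psmb10 (in place of Psmb7) had 19.3 and 9.56 CPM in cKO and 20.7, 35.5 and 54.2 CPM in WT (-1.27 ± 0.58, edgeR adjusted p = 0.404), with no overlap in CPM but a small gap between cKO replicate 1 and WT replicate 6. In TPM the groups overlapped, with 41.5 in cKO replicate 1 and 36.6 in WT replicate 6, and the estimate was -0.20 with detected genes as a covariate. The 3 immune genes made up 4.19% and 8.31% of the TPM of the catalytic and immune subunit genes together in cKO, and from 2.19% to 6.87% in WT. The groups overlapped. Psmb8 and Psmb9 lie 9957 bases apart on chromosome 17. Leukocytes are rich in these subunits, and the summed leukocyte markers were higher in cKO (38.1 and 31.4 CPM) than in each WT library (7.98 to 30.2 CPM). The gap was smaller than 3 reads in cKO replicate 2 (4.1 CPM), and 2 of the 6 tested leukocyte markers were lower in cKO. The part of leukocytes in the levels of the immune subunits was not tested.

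The tissue-restricted subunits were near the limit of detection. Psma8, the alpha subunit of germ cells in the testis, had 0 and 3 reads in cKO, and at most 5.46 CPM in WT. Psmb11, the subunit of the cortical thymus, had 3.04 and 24.6 CPM in cKO, from 6 and 18 reads, and 1.31, 3.25 and 9.89 CPM in WT. Its estimate of 1.65 ± 1.01 (edgeR adjusted p = 0.514) was the highest of all members and was -0.55 without cKO replicate 2. It lies 3411 bases from Psmb5 on chromosome 14.

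Among the ATPases of the base, which unfold the substrate, 2 of 6 were at an unadjusted p under 0.05 (8.89% of all genes lower). Psmc1 had 83.7 and 47.8 CPM in cKO and 81.9, 160 and 212 CPM in WT (-1.25 ± 0.48, edgeR adjusted p = 0.374). Psmc3 had 175 and 54.6 CPM against 87.9, 386 and 417 CPM (-1.43 ± 0.67, edgeR adjusted p = 0.406). With detected genes as a covariate Psmc1 was at -0.94 and Psmc3 at -0.34. In both genes WT replicate 1 lay within the cKO range and the other WT libraries above it. Psmc5 had 261 and 123 CPM in cKO and 179.7, 219 and 498 CPM in WT (-0.47 ± 0.51), so that cKO replicate 1 was above the WT median. Psmc2, Psmc4 and Psmc6 lay between these, from -0.9 to -0.67.

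The other base subunits, scaffolds and ubiquitin receptors, gave 0 of 3 genes at an unadjusted p under 0.05 (8.89% of all genes lower). Psmd2 had 100.0 and 83.3 CPM in cKO and 65.4, 203 and 288 CPM in WT (-1.05 ± 0.56). Psmd4, a ubiquitin receptor, had 355 and 132 CPM against 185, 334 and 559 CPM (-0.45 ± 0.54, or 0.03 without cKO replicate 2). Psmd1 was at -0.57 ± 0.51. Replicate 1 of cKO lay within the WT libraries for all 3.

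In the lid 1 of 8 genes was at an unadjusted p under 0.05 (8.89% of all genes lower), Psmd13, a structural subunit. It had 24.4 and 15.03 CPM in cKO and 36.4, 73.1 and 147 CPM in WT, with no overlap. Its log2 fold change was -1.98 ± 0.64 (SE, edgeR adjusted p = 0.369, DESeq2 adjusted p = 0.0577), -1.09 with detected genes as a covariate and -0.81 among the libraries numbered 1 and 2, where the WT libraries are its lowest. Its exons share 342 bases with Sirt3 on the other strand, and without strand in the libraries their reads cannot be told apart. Psmd14, the enzyme that cuts the ubiquitin chain from the substrate, had 52.8 and 23.2 CPM in cKO and 20.9, 82.4 and 122 CPM in WT (-0.97 ± 0.61, edgeR adjusted p = 0.52). Its lowest library was WT replicate 1. Psmd6 had 145 and 53.3 CPM against 60.4, 144 and 164 CPM (-0.31 ± 0.51, or 0.16 without cKO replicate 2). The remaining lid genes, Psmd3, Psmd7, Psmd8, Psmd11 and Psmd12, ranged from -1.54 (Psmd8) to -0.39 (Psmd7). With detected genes as a covariate Psmd14, Psmd6 and Psmd8 changed sign, to 0.41, 0.51 and 0.14.

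Activators and the inhibitor of the core follow. The 4 activator genes had a median of -0.65, and 0 of them were at an unadjusted p under 0.05 (8.89% of all genes lower). Psme1, which with Psme2 forms the interferon-inducible activator ring, had 329 and 115 CPM in cKO and 267, 307 and 548 CPM in WT (-0.62 ± 0.51). Psme2, 5912 bases from Psme1 on chromosome 14, was at -0.67 ± 0.56 (0.10 with detected genes as a covariate), and the TPM of Psme1 over that of Psme2 was 1.60 and 1.68 in cKO, inside the WT range of 1.25 to 2.29. Psme3, the nuclear activator, had 50.2 and 20.5 CPM against 37.4, 64.5 and 109 CPM (-0.96 ± 0.53). Psme4, an activator linked to histone degradation, had 82.2 and 54.6 CPM in cKO and 40.5, 67.2 and 96.7 CPM in WT. Both cKO libraries lay inside the WT range, and the estimate of -0.02 ± 0.43 became 0.07 when DESeq2's size factors replaced TMM, a change of sign. Summed over the 4 activators, TPM was 551 and 254 in cKO and 556, 666, 572, 527, 552 and 572 in WT. Only cKO replicate 2 lay outside. Psmf1, which encodes the core-binding inhibitor PI31, had 18.8 and 16.4 CPM in cKO and 30.2, 48.4 and 101 CPM in WT. The groups did not overlap and the 2 cKO libraries were close to each other. Its log2 fold change was -1.55 ± 0.57 (SE, edgeR adjusted p = 0.369), -1.53 without cKO replicate 2, -1.67 with detected genes as a covariate and -1.08 among the libraries numbered 1 and 2.

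The assembly chaperones help to build core and base and leave the finished particle. Of 4 core chaperone genes 2 were at an unadjusted p under 0.05 (8.89% of all genes lower). Psmg1 had 22.8 and 19.1 CPM in cKO and 21.4, 55.0 and 87.7 CPM in WT (-1.43 ± 0.56, edgeR adjusted p = 0.376). Psmg4 had 42.6 and 23.2 CPM against 50.5, 70.7 and 140 CPM (-1.23 ± 0.52, edgeR adjusted p = 0.381), with no overlap, and was at -1.41 among the libraries numbered 1 and 2. Psmg2 had 48.2 and 20.5 CPM in cKO and 19.8, 35.5 and 50.8 CPM in WT (0.01 ± 0.51). Both its cKO libraries were within the WT range. Psmg3 was at -0.49 ± 0.74, and at 0.30 with detected genes as a covariate, where Psmg1 was at -0.85 and Psmg4 at -1.98.

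Among the base chaperones, Psmd10, also known as the oncoprotein gankyrin, had 0 reads in both cKO libraries after rounding (an estimate of 0.5 reads in replicate 2). In WT it had 2.20, 4.65, 13.3, 14.99, 14.9 and 25.1 CPM in replicates 1 to 6. The limit of 3 reads over the cKO group is 1.11 CPM, which is 11.3-fold below the WT mean of 12.5 CPM (edgeR adjusted p = 0.369). This bound pools the 2 cKO libraries, covers counting error only and measures no size of effect. WT replicate 1, with 4 reads, was close to the limit of 1.11 CPM too. In cKO replicate 2 alone 3 reads are 4.1 CPM, above the level of WT replicate 1. Psmd9 had 35.5 and 41.0 CPM in cKO and 20.8, 40.9 and 87.3 CPM in WT (-0.25 ± 0.57), and its exons share 1849 bases with Gm26745. Psmd5 was at -0.84 ± 0.52. Of the 2 remaining rows, Psmc3ip was at -0.45 ± 0.52 and Psme2b had 0 reads in cKO and at most 4.92 CPM in WT.

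Partners of the proteasome that the name rule does not reach were taken from a separate list of 24 measured genes. Of these, 20 were under 0 (52.7% of all genes), with a median of -0.73, and an unadjusted p under 0.05 was reached by 4, all lower (8.89% of all genes). Among the 21 with an adjusted p from DESeq2, 2 were called, Ubqln1 and Ubb, both lower (3.53% of all genes with one). Ubqln1, a shuttle that carries ubiquitylated proteins to the proteasome, had 15.7 and 15.03 CPM in cKO and 25.8, 74.2 and 100.4 CPM in WT, with no overlap (-2.15 ± 0.58, edgeR adjusted p = 0.369, DESeq2 adjusted p = 0.0232). Ubb, a polyubiquitin gene, had 1249 and 408 CPM against 898, 4182 and 6244 CPM (-2.16 ± 0.84, edgeR adjusted p = 0.375, DESeq2 adjusted p = 0.0259), and WT replicate 1 lay between the cKO libraries. Nfe2l1, the transcription factor that induces proteasome genes when proteasome activity is short, had 123 and 82.0 CPM in cKO and 147, 228 and 301 CPM in WT, with no overlap in CPM (-1.13 ± 0.47, edgeR adjusted p = 0.38). In TPM the groups overlapped, with 62.4 and 63.0 in cKO and 48.2 and 53.0 in WT replicates 5 and 6, and the estimate was -0.41 on both TPM scales. Its WT libraries were ordered differently from the core, with replicate 5 lowest and replicate 3 highest. Pomp, the maturation factor of the core, had 74.1 and 28.7 CPM in cKO and 37.0, 162 and 216 CPM in WT (-1.41 ± 0.68), and Adrm1, a ubiquitin receptor of the base, had 188 and 83.3 CPM against 93.4, 210.5 and 333 CPM (-0.60 ± 0.53). Both overlapped between the groups.

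The promoters were searched for letters of known motifs, and the counts are a description with no test. RefSeq promoter windows of 300 bases (250 before and 50 after the start, GRCm38.p6) were matched for 42 of the 50 genes, with 45 windows, and both strands were searched. The letters CCGGAAG, a core of sites for ETS factors, were in 10 of 15 windows of the regulatory particle and in 1 of 12 of the core, against 8.86% of all 32851 windows, coding and not. HIF sites share a core in 2 forms. The form ACGTG was in 4 of 12 core windows and 1 of 15 of the regulatory particle (19.6% of all windows), and the form GCGTG was in 8 of 12 and 5 of 15 (32.4%). The motif TGACNNNGC, within the antioxidant response element that NFE2L1 binds, was in 2 of 12 and 2 of 15 (12.4%). The motif of nuclear respiratory factor 1 was in 3 of 12 core windows and 3 of 15 of the regulatory particle (4.6% of all windows), and CCAAT in 6 of 12 and 4 of 15 (37.4%). Over the 21263 windows of coding genes, the class of all 50 members, the shares were 11.6% for the ETS letters, 20.9% and 38.5% for the HIF cores in the order above, 13.0% for TGACNNNGC, 6.38% for the nuclear respiratory factor 1 motif and 38.2% for CCAAT. In 1 member window the ETS and a HIF match overlapped. A match describes the letters only. The windows below are the 250 bases upstream of 2 core and 2 regulatory particle genes, those with the smallest p among windows with a match and a start within 30 bases of the gene's annotated start. Capitals mark matches to the ETS letters and to both HIF cores, on either strand, with adjoining matches joined. They are examples and no support for a contrast in these counts, because windows without a match were passed over. Psma6 was left out in this way, with neither match in the window at its annotated start. Psmd13 and Psmc1 were left out by the rule on starts. The window of Psmd13 holds both the ETS letters and ACGTG, and that of Psmc1 the ETS letters. Psmb2 and Psmc3 had no matched window. The printed genes are therefore not those with the smallest p in each part. Psma1 and Psma5 hold HIF cores and no ETS letters, and Psmd11 and Psmd2 hold the ETS letters, with 1 HIF core in Psmd2.
Psma1 (chr7:114276117-114276366, minus strand): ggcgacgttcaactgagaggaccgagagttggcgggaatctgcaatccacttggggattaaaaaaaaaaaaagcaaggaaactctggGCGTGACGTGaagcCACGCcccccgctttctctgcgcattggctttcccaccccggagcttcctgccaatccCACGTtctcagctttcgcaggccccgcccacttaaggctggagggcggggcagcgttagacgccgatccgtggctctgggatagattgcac
Psma5 (chr3:108256676-108256925, plus strand): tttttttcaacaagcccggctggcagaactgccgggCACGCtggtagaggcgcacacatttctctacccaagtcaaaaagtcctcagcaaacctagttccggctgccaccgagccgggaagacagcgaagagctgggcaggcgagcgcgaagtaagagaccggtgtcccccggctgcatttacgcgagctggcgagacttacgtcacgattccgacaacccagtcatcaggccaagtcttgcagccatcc
Psmd11 (chr11:80428365-80428614, plus strand): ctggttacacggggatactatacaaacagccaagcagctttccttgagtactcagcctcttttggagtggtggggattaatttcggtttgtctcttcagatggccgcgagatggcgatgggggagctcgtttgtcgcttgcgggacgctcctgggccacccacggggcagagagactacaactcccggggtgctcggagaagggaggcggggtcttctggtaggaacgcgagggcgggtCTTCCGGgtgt
Psmd2 (chr16:20651402-20651651, plus strand): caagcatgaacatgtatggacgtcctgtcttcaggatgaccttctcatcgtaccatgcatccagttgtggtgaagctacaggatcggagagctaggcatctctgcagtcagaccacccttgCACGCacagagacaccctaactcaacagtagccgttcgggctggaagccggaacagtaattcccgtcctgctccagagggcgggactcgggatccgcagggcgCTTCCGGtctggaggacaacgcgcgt

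The 50 genes lie on 16 chromosomes. Psmb2, the gene with the smallest p in the core, spans chr4:126677630-126709714 on the plus strand, Psma1 chr7:114264606-114276118 on the minus strand, Psmd13 chr7:140881968-140898643 on the plus strand, Psmf1 chr2:151715812-151744186 on the minus strand and Psmd10 chrX:140948429-140956728 on the minus strand (GENCODE M21, GRCm38, to which mm10 corresponds). Of the 50 genes, 15 share exonic bases with another annotated gene.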

How the data were processed

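For each library the authors deposited estimated counts (reads assigned to each row) and TPM values. HISAT2, Salmon and the mm10 genome are named, without versions, per the submitters' processing notes, with no annotation stated. The protocol, Smart-seq2 amplification and Tn5 libraries per the labels' protocols, does not mark strand and has no molecular identifiers, so limits from read counts cover counting error only.

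Rows without a gene name (1548, from 0.435% to 0.739% of reads) were left out. The deposited estimated counts were rounded, filtered with filterByExpr (minimum count 10, minimum total 15), scaled by TMM and fitted with edgeR 4.0.16 (glmQLFit, glmQLFTest, group as the only term, R 4.3.3), with Benjamini-Hochberg adjustment over 15102 genes and a threshold of 0.05. CPM are read counts scaled to the TMM-adjusted library size, SE was derived from the F statistic, and a common biological coefficient of variation of 0.699 was estimated. The deposited TPM values were used for levels between genes and were not tested in the main comparison. Scaling by DESeq2's size factors shifted the median log2 fold change of all genes from -0.08 to 0.05. In simulated counts for cKO against WT over 15102 genes, 15% of 100 genes changed 4-fold and 63% of 100 changed 16-fold were called. Each pair of libraries differed by more than sampling noise (chi-square per degree of freedom from 13.4 to 103 over 28 pairs). The 3 fixed list genes Paaf1, Ecpas and H1f8 were not among the rows.

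Members and lists were chosen with earlier results of these data known. Named were members with an unadjusted p under 0.05, the lowest and highest of each class, and a few set by role (Psmb5, Psmb8 to Psmb10, Psmd14, Psmd4, Psme1, Psme3, Psme4, Psmf1, Pomp, Nfe2l1, Adrm1, the 2 partners with the smallest p, and Hif1a); others named with a value stand beside their class and were chosen after their values were seen. Alternatives were size factors from DESeq2, library size without TMM, no filter, at least 10 reads in 6 libraries, DESeq2 1.42.0, limma-voom (limma 3.58.1) with quality weights, limma on log2(TPM + 1) and log2(TPM + 0.1), the replicate number as a block, genes with at least 5 reads as a covariate, the libraries numbered 1 and 2 alone, leaving out each library, and removal of the genes of the mitochondrial genome.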

Additional observations from a re-analysis of the deposited data

Results flagged for a closer look

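In 3 of 46 sets of 6 WT values 1 library stood apart from the others by Dixon's ratio of gap to range, where chance alone would put about 1 in 20 past it. Psmc5, an ATPase gene of the base, was highest in WT replicate 2, at 498 CPM with the next library at 266 CPM (ratio 0.73). Psme1 was highest in the same library, at 548 CPM with the next at 351 CPM (ratio 0.701). Psmf1 was highest in WT replicate 6, at 101 CPM with the next at 52.2 CPM (ratio 0.687), and its log2 fold change without that library was -1.14.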

How the results depend on the processing

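edgeR called 0 of all genes under the main settings, where 1342 were lower and 513 higher at an unadjusted p under 0.05. The count of all genes called was 478 without a filter, 274 with DESeq2, 5 and 12 with limma on log2(TPM + 1) and log2(TPM + 0.1), and from 0 to 1 when 1 library was left out. With limma-voom the balance at an unadjusted p under 0.05 turned to 6.81% lower and 9.65% higher. The members at an unadjusted p under 0.05 numbered 2 with detected genes as a covariate, 1 among the libraries numbered 1 and 2, and from 2 to 27 when 1 library was left out. The core median was -0.55 with detected genes as a covariate, and with 1 library left out it ranged from -2.63 to -0.93, and that of the regulatory particle from -1.5 to -0.6.

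Only 2 replicate numbers are shared. Across genes, the deviations of same-numbered libraries had r = -0.3 for those numbered 1 and -0.17 for those numbered 2. With 2 libraries in cKO, their deviations mirror each other (r = 0.3 for cKO replicate 2 with WT replicate 1). Whether the numbers pair the libraries therefore cannot be decided from these values. With the replicate number as a block, 1 gene was called, and 1 member was lower at an unadjusted p under 0.05 (0.795% of all genes). The medians of the core and the regulatory particle were -0.9 and -0.63. In that fit 42 members were under 0 and 7 above it, against 47 and 2 in the main fit. Of the genes that the rule names, Psma8 (5.77), Psmd9 (0.37) and Psme4 (0.09) changed sign.

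Signs also turned, in genes whose adjusted p passed no threshold in either fit. Psme4 was at 0.07 with DESeq2's size factors, 0.01 with no TMM factor, 0.13 with 10 reads in 6 libraries, 0.08 with DESeq2 and 0.11 with limma-voom. Psmg2 was at -0.05 without a filter and with limma-voom, and at -0.04 on both TPM scales. With detected genes as a covariate Pomp was at 0.06, Psma3 at 0.89, Psmb11 at -0.59, Psmb8 at 1.26, Psmd14 at 0.41, Psmd6 at 0.51, Psmd9 at 0.49 and Psme4 at 0.11, and so turned Psmb1 (0.19), Psmd8 (0.14), Psma4 (0.28), Psme2 (0.10) and Psmg3 (0.30), which the rule for named genes does not take. Among the libraries numbered 1 and 2 Psma3 was at 0.05, Psmd9 at 0.37 and Psme4 at 0.04. With 1 library left out, Psma8 ranged from -5.95 to 0.76, Psmg2 ranged from -0.82 to 0.41, Psmb11 ranged from -0.55 to 2.46, Psmb8 ranged from -8.22 to 0.42, Psmd4 ranged from -1.4 to 0.03, Psmd6 ranged from -1.29 to 0.16, Psme4 ranged from -0.41 to 0.17 and Psmd9 ranged from -0.43 to 0.15, and Psmg3 was at 0.15 without cKO replicate 2. The low ends for Psma8 and Psmb8, and the value of Psma8 with the block, are fitted against libraries with 0 reads and measure no size. Of the values for the 39 genes that the rule names, under all alternatives, 724 kept their direction and side of the threshold, 10 passed it and 40 changed sign; the cause was not tested. Without cKO replicate 1, 32 of 49 members had an estimate over 1.5 times as large, and without cKO replicate 2, 23 had one over 1.5 times smaller. In those 2 fits the lone cKO library is assumed to vary as the WT libraries do. Removing mitochondrial genome genes left 16 members at an unadjusted p under 0.05.

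In cKO replicate 2, the library with the fewest reads, Psma8 had 3 reads, which are 4.1 CPM there.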

Other observations

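The makeup of the beta ring split the WT libraries. Psmb6 took 29.4%, 29.4% and 27.6% of the summed TPM of the 7 beta genes in WT replicates 4 to 6, and 38.1%, 37.9% and 39.0% in WT replicates 1 to 3. The cKO libraries, at 37.3% and 36.4%, lay near the latter. The 7 beta genes summed to 1.552 and 1.56 times the 7 alpha genes in WT replicates 5 and 6, and to 2.87 times in WT replicate 2, with 2.46 and 1.81 in cKO. The ATPases of the base relative to the lid, as mean TPM per gene, varied less, at 1.52 and 1.53 in cKO and from 1.35 to 1.73 in WT. The choice of these ratios was made with their values known, and none was tested.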
